A study of Mus musculus with 12 samples.

Results

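The data concern 9 mouse genes that osteoclasts use to form and to resorb bone, namely Nfatc1, Ocstamp, Dcstamp, Oscar, Calcr, Itgb3, Acp5, Ctsk and Spp1. These genes were selected on what they are known for and on their levels and differences in these same libraries, choline against PBS and shChrebp against shCtrl, so their values are a description and carry no test. All 9 have a row among the 22274 genes of the tumor table, found by Ensembl ID, and 8 have a row among the 19496 genes of the macrophage table, found by symbol. Calcr is not analysed here in macrophages. Osteoclasts are large multinucleate cells that arise by fusion of monocyte and macrophage precursors. The ligand RANKL and the growth factor CSF1, with co-signals from receptors that carry ITAM adaptors, induce Nfatc1, the transcription factor that drives fusion genes, acid secretion and matrix-degrading enzymes. Several of these genes are also expressed by macrophages outside bone, and Spp1 and Itgb3 by tumor cells.

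RNA-seq was done on 12 libraries in 4 groups of 3. For 6 of them, RNA was taken from tumors under the skin of C57BL/6 mice, grown from MC38 cells, a mouse colon adenocarcinoma line, that carried a control hairpin (shCtrl, genotype given as WT) or a hairpin against Chrebp (shChrebp, genotype given as Chrebp knockdown). The other 6 were bone-marrow-derived macrophages (BMDM) that received PBS or choline. Choline was given at 200 µM for 24 h in fresh medium, after 4 h with LPS and IFN-γ. The sources used here do not give the age of the mice, the number of hairpins or clones, or whether RANKL or CSF1 was in the cultures. The 4 h with LPS and IFN-γ was recorded here for the PBS cultures as well, although these sources do not state it separately for them.

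Tumor libraries held 15844794 to 24181897 estimated counts, and BMDM libraries 35007719 to 35440287 reads as recovered from the deposited FPKM values. The hairpin target, whose symbol is Mlxipl, had in shCtrl 3, 1 and 1 counts by Ensembl ID, and in shChrebp 1, 1 and 2, too few to check the knockdown. The BMDM carried macrophage RNA, with 9 of 12 macrophage markers in the table summing to 3731 to 3890 FPKM with PBS and 4812 to 5252 FPKM with choline. In the tumors the same 12 markers summed to 50.4 to 55.1 CPM in shCtrl and 38.3 to 43.7 CPM in shChrebp, and the defining marker Adgre1 had 0 or 1 count per library. One tumor library, shCtrl 1, stood apart, with 5 epithelial markers summing to 58.2 CPM against 8.81 to 13.7 CPM in the other 5. Whether replicates came from separate animals or cultures is not labelled, and p-values then reflect only the spread between these libraries, which may be technical.

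The first question was whether choline-treated macrophages differ from PBS-treated ones in these genes. With choline the 2 fusion genes and Nfatc1 were lower, the 2 resorption enzymes Acp5 and Ctsk and the secreted protein gene Spp1 were higher, and Itgb3 and Oscar were near 0 in both groups. Among the tested genes Ocstamp had the ratio farthest from 1, as its mean with choline was 0.189 times that with PBS. Of the 6 genes that passed the filter of at least 1 FPKM in at least 3 libraries, Ocstamp did so through its PBS libraries alone, so its groups had to lie apart. For the other 5 the choline and PBS libraries did not overlap, but the share of all genes tested without overlap was not counted. In the limma fit over the whole table, at an adjusted p under 0.05, 3 of these genes were called higher and 3 lower, where 57.4% of the 10028 genes tested were called, 28.2% higher and 29.2% lower. Since the genes were selected on these differences, the counts are a description and nothing is read from them. In bulk RNA, fewer cells of a type and less RNA per cell cannot be told apart, and this holds for each gene below.

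**Figure D1:**
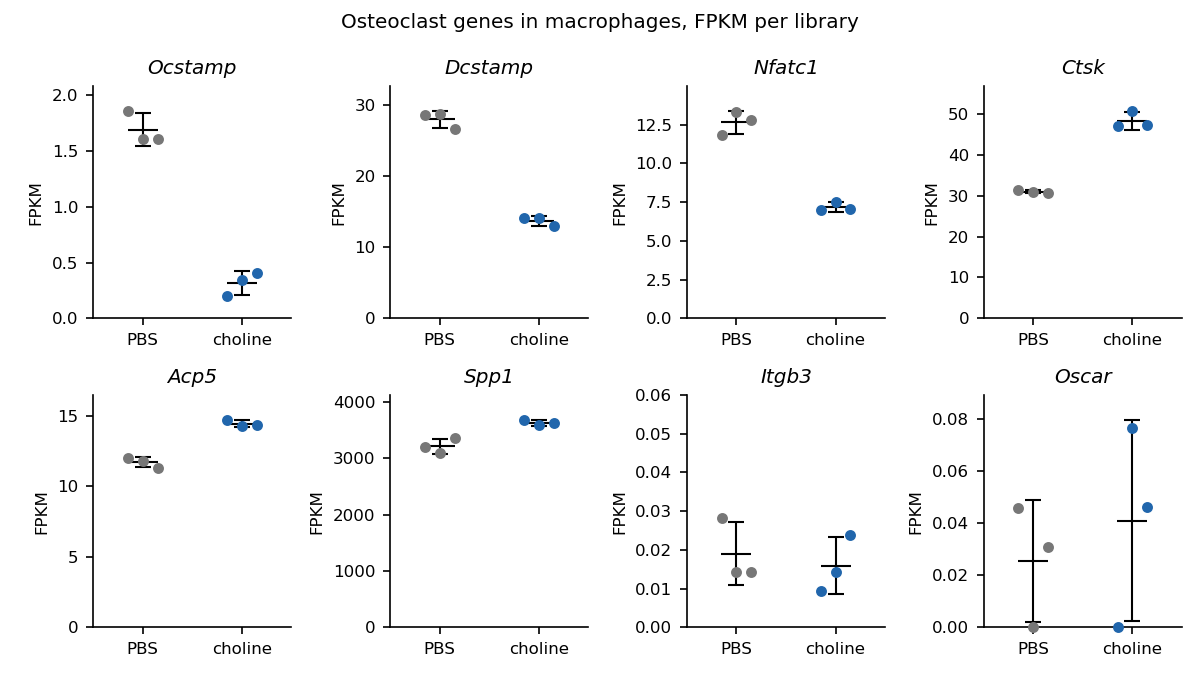
FPKM of 8 osteoclast genes in BMDM, with 1 panel per gene, PBS libraries in grey and choline libraries in blue, and a vertical axis in FPKM that starts at 0. Points are libraries and the black bars give the mean and SD of 3. Ocstamp, Dcstamp and Nfatc1 lay lower with choline, Ctsk, Acp5 and Spp1 lay higher, and Itgb3 and Oscar overlapped below 0.08 FPKM.

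Nfatc1, the regulator that RANKL signalling induces, was at 11.9, 13.3 and 12.8 FPKM with PBS and at 6.97, 7.52 and 7.04 FPKM with choline. Every choline library lay below every PBS library. The means were 12.6 ± 0.736 and 7.18 ± 0.303 FPKM (SD, n = 3), and the log2 fold change, on the scale of log2(FPKM + 0.1), was -0.81 ± 0.06 (SE). Behind these values stood 3198 to 3566 reads per library with PBS and 1876 to 2017 with choline.

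Ocstamp and Dcstamp encode related multipass membrane proteins, each needed in mice for osteoclast precursors to fuse. Dcstamp was at 28.6, 28.7 and 26.6 FPKM with PBS and at 14.1, 14.2 and 12.9 FPKM with choline. Its means of 27.9 ± 1.19 and 13.7 ± 0.698 FPKM (SD, n = 3) gave a log2 fold change of -1.02 ± 0.05 (SE), and the ratio of the means was 0.491. Ocstamp was far less abundant, at 1.86, 1.61 and 1.60 FPKM with PBS and 0.202, 0.348 and 0.408 FPKM with choline. These values rested on 129, 111 and 110 reads against 14, 24 and 28. The log2 fold change of Ocstamp was -2.12 ± 0.19 (SE). Ocstamp passed the filter through its PBS libraries alone, so it had to differ to be tested. Because its level is low, its fold change depended on the pseudocount, at -1.03 with a pseudocount of 1, while edgeR on the recovered reads gave -2.41 ± 0.24 (SE). Both fusion genes were lower with choline, in unequal proportion. Dcstamp exceeded Ocstamp by 15.4, 17.8 and 16.6 times in the PBS libraries and by 69.7, 40.7 and 31.6 times in the choline libraries, as ratios of FPKM within a library. The Nfatc1 to Dcstamp ratio moved less, from 0.415, 0.464 and 0.481 to 0.495, 0.532 and 0.546.

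Ctsk, the cysteine protease cathepsin K that digests bone collagen, was at 31.4, 30.8 and 30.6 FPKM with PBS and at 46.9, 50.7 and 47.2 FPKM with choline. The lowest choline library lay well above the highest PBS library, and the log2 fold change was 0.64 ± 0.04 (SE). Acp5, the tartrate-resistant acid phosphatase used as the histochemical stain for osteoclasts, was at 12.1, 11.8 and 11.3 FPKM with PBS and at 14.7, 14.3 and 14.4 FPKM with choline. Its groups did not overlap either, but its log2 fold change was smaller, at 0.30 ± 0.05 (SE). The enzymes and the fusion genes thus went opposite ways. Within a library, Ctsk was at 1.10, 1.08 and 1.15 times the FPKM of Dcstamp with PBS and at 3.33, 3.58 and 3.66 times with choline. For Acp5 the ratio to Dcstamp was 0.422, 0.413 and 0.426 with PBS, and with choline it was over 1 in all 3 libraries and at most 1.11.

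Spp1 encodes osteopontin, a secreted phosphoprotein of bone matrix that binds integrins and CD44 and that macrophages also secrete. It was at 3208, 3089 and 3356 FPKM with PBS and at 3682, 3586 and 3624 FPKM with choline. By mean FPKM it ranked 7 of 19496 genes with PBS and 8 with choline. Its log2 fold change of 0.18 ± 0.04 (SE) was the smallest of the 6. The macrophage markers of these libraries did not move as one, and of 7 tested with choline 3 rose, 1 fell and 3 were not called. The share called, 57.1%, was near the 57.4% of all genes tested, so nothing is read from the count. Lyz2, a lysozyme gene, rose from 2523 to 2623 FPKM with PBS to 3619 to 3988 FPKM with choline and accounted for most of the higher marker sum. Fcgr1, an Fc receptor gene, went from 7.77 to 8.46 FPKM to 26.4 to 27.5 FPKM, and Adgre1 from 61.3 to 63.2 FPKM to 75.5 to 83.3 FPKM. Cd14 fell slightly, by 0.11 on the log2 scale, and Cd68, Csf1r and Itgam were not called. The part of macrophage marker level in the higher Spp1, Ctsk and Acp5 was not tested.

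The receptors of the list were scarce. Itgb3, the integrin β3 subunit that pairs with αv in the sealing zone of osteoclasts, had 6, 3 and 3 reads with PBS and 2, 3 and 5 with choline. Oscar, an immunoglobulin-like receptor that binds collagen and signals through the ITAM adaptor FcRγ, had 3, 0 and 2 reads with PBS and 0, 5 and 3 with choline. The floor of 3 reads per library corresponds to 0.0846 to 0.0857 CPM, and neither gene exceeded 6 reads in any library, so no fold is given. A difference of Itgb3 or Oscar was not detectable at this depth.

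FPKM divides by gene length, so the genes can also be ordered against each other, given the length used for each. That length was 7601 bases for Nfatc1, 2880 for Acp5 and 2054 for Dcstamp, and the order could differ under another gene model. With PBS the order was Spp1 (3218 FPKM), Ctsk (30.9), Dcstamp (27.9), Nfatc1 (12.6), Acp5 (11.7) and Ocstamp (1.69), each as the mean of 3 libraries. The ranges of Nfatc1 and Acp5 overlapped, and the other neighbours did not. With choline it was Spp1 (3631 FPKM), Ctsk (48.3), Acp5 (14.5), Dcstamp (13.7), Nfatc1 (7.18) and Ocstamp (0.319), and no neighbours overlapped. Acp5, which stood below Dcstamp in every PBS library, stood above it in every choline library.

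The 3 genes that were higher with choline also have RefSeq start-site windows, which are shown because these genes moved together. A window runs from 250 bases before to 50 bases after an annotated start, in build GRCm38.p6, which is not the GRCm39 named in the submitters' processing notes. Such windows were used for 5 of the 9 genes, namely Ctsk, Spp1, Acp5, Oscar and Calcr. Windows of Nfatc1, Ocstamp, Dcstamp and Itgb3 were not used, so no gene that was lower with choline is covered. Motifs of factors active in osteoclasts were searched on both strands. The motifs were TGANTCA for AP-1, GGAAA for NFAT, GAGGAA for PU.1, TCANGTG for MITF and TFE factors and AACCACA for RUNX, and letters shared by overlapping NFAT and PU.1 motifs counted for both. Capitals mark every match in either orientation. The Ctsk window lies at chr3:95498960-95499259 on the plus strand, the more upstream of 2 Spp1 windows at chr5:104434861-104435160 on the plus strand, and the most downstream of 3 Acp5 windows at chr9:22130549-22130848 on the minus strand, printed in the direction of transcription.
Ctsk: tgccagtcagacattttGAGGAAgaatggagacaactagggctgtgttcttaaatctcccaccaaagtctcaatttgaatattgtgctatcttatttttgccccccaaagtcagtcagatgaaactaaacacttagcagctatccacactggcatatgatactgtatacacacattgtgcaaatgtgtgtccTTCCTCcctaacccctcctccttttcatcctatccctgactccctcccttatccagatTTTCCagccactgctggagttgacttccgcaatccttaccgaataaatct
Spp1: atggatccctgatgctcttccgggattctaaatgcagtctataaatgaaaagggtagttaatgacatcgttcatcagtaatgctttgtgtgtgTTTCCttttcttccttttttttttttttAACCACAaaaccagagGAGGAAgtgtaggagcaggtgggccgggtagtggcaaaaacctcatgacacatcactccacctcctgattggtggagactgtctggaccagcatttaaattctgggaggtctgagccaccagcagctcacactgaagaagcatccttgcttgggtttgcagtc
Acp5: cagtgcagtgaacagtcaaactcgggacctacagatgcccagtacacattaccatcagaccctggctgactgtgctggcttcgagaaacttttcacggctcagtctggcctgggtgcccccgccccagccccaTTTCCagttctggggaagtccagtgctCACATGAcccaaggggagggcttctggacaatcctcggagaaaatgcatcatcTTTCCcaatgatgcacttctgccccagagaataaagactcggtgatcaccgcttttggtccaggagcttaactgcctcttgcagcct

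The Ctsk window held 1 NFAT and 2 PU.1 matches. The printed Spp1 window held 1 NFAT, 1 PU.1 and 1 RUNX match, and the printed Acp5 window held 2 NFAT matches and 1 MITF and TFE match. The other Spp1 window held 2 NFAT matches, and each of the other Acp5 windows held 1 NFAT match. The Oscar window held more, with 4 NFAT, 2 PU.1 and 1 MITF and TFE match, though Oscar was near 0 in BMDM. The more upstream Calcr window held 1 NFAT and 1 MITF and TFE match, and the other Calcr window held no match. Over all 32851 windows of the same length, 61.3% held the NFAT letters, 28.3% PU.1, 14.3% MITF and TFE, 7.81% AP-1 and 5.27% RUNX. A match is a description of letters and not a site.

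The genes of the macrophage table whose profile was most like the mean of Ocstamp and Dcstamp, by Pearson correlation of log2(FPKM + 0.1) over the 6 libraries, were Morf4l2 (r = 0.999), Rtf1 (0.999), Scin (0.998), Sh2b3 (0.998) and Tnfrsf11a (0.997). The libraries fall into 2 treatment groups, which all such profiles share, and 1162 of the 10026 other genes tested had an r over 0.95. Tnfrsf11a is RANK, the receptor of RANKL. Scin, which encodes the actin-severing protein adseverin, went from a mean of 4.70 to 2.27 FPKM, a log2 fold change of -1.02 ± 0.08 (SE). Among the other osteoclast genes, r with the same mean was 0.981 for Nfatc1, -0.972 for Acp5, -0.975 for Ctsk and -0.937 for Spp1.

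The second question was how these genes differ between tumors with the Chrebp hairpin and tumors with the control hairpin. Spp1 was abundant and lower in shChrebp, by a ratio of 0.456 in mean CPM. Itgb3 was slightly lower, Nfatc1 overlapped between the groups, and the other 6 genes were at or near 0. By edgeR's filter on low counts 3 of the 9 genes were tested, and 2 of them, Spp1 and Itgb3, were called, both lower, where 38.2% of the 11780 genes tested were called, 18.6% higher and 19.7% lower.

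**Figure D2:**
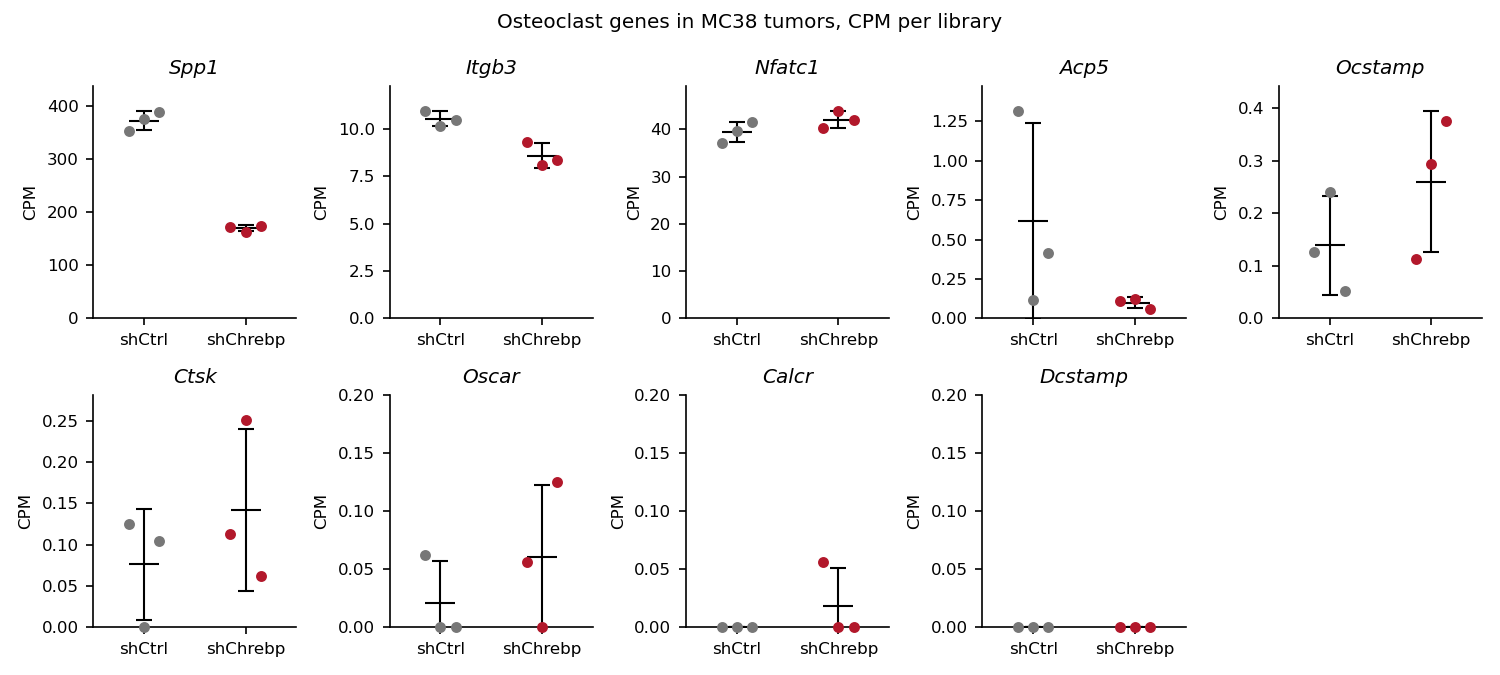
CPM of the 9 osteoclast genes in MC38 tumors, with 1 panel per gene, shCtrl libraries in grey and shChrebp libraries in red, and a vertical axis in CPM that starts at 0 and differs between panels. Points are libraries and the black bars give the mean and SD of 3. Spp1 and Itgb3 lay lower in all 3 shChrebp libraries, the single high Acp5 point is shCtrl 1, and Dcstamp was at 0 in all 6.

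Spp1 counts were 5628, 6283 and 7460 with the control hairpin and 3046, 3911 and 2799 with the Chrebp hairpin, or 353, 376 and 389 CPM against 171, 164 and 175 CPM. The groups lay far apart, with means of 372.6 ± 18.4 and 170.0 ± 5.70 CPM (SD, n = 3) and a log2 fold change of -1.15 ± 0.04 (SE) by edgeR. By mean FPKM Spp1 ranked 225 of 22274 genes in shCtrl and 566 in shChrebp. The fold change ranged from -1.18 to -1.12 over 11 alternatives. Of the macrophage markers, Cd68, a lysosomal glycoprotein, had 198, 292 and 177 counts in shChrebp against 373, 410 and 482 in shCtrl. For Cd14 the counts were 450, 606 and 359 in shChrebp against 383, 381 and 399. With Adgre1 at 0 or 1 count and Csf1r at 0 to 11, these defining markers were close to 0 in both groups. The 5 fibroblast markers summed to 95.8 to 106.6 CPM in shCtrl and 83.5 to 90.5 CPM in shChrebp, and of 3 tested 2 fell. Dcn, a matrix proteoglycan gene among them, had 154, 134 and 186 counts in shCtrl against 39, 63 and 38, and Pdgfra fell by 0.41 on the log2 scale. Pdgfrb went the other way, at 8.01 to 8.31 FPKM in shChrebp against 6.76 to 7.91 FPKM in shCtrl, and was not called. Lum and Thy1 had 0 to 6 counts. The part of macrophage or fibroblast markers in the lower Spp1 was not tested.

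Itgb3 was at 11.0, 10.2 and 10.5 CPM in shCtrl and at 9.34, 8.08 and 8.37 CPM in shChrebp, with 134 to 201 counts per library. The groups did not overlap in CPM, and the log2 fold change was -0.32 ± 0.11 (SE). Its call held in 5 of 11 alternatives. It ended with the DESeq2 Wald test, with limma on log2(FPKM + 0.1), and without shCtrl 1, shCtrl 3, shChrebp 2 or shChrebp 3, over which the fold change kept its sign. Nfatc1 was at 37.2, 39.6 and 41.5 CPM in shCtrl and at 40.2, 43.9 and 42.0 CPM in shChrebp. These ranges overlapped, and the log2 fold change was 0.07 ± 0.06 (SE).

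Acp5 was not tested, its counts being 21, 2 and 8 in shCtrl against 2, 3 and 1 in shChrebp. The groups overlapped, and the high value was that of shCtrl 1, the library with the high epithelial markers. In the same library the protease gene Ctss had 32 counts against 0 to 6 in the others, and Car2, which encodes carbonic anhydrase II, had 100 against 20 to 33. The part of this library's makeup in its Acp5 level was not tested. Without shCtrl 1 the Acp5 counts were 2 and 8 in shCtrl. Counts of Ocstamp were 2, 4 and 1 in shCtrl against 2, 7 and 6 in shChrebp, and those of Ctsk were 2, 0 and 2 against 2, 6 and 1. Oscar had 1 count in shCtrl 1, 1 in shChrebp 1 and 2 in shChrebp 3. Calcr, the receptor of calcitonin, had 1 count in shChrebp 1 and 0 in the other 5 libraries, and Dcstamp had 0 in all 6. At the floor of 3 counts, a 0 allows up to 0.124 to 0.189 CPM in these libraries.

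**Figure D3:**
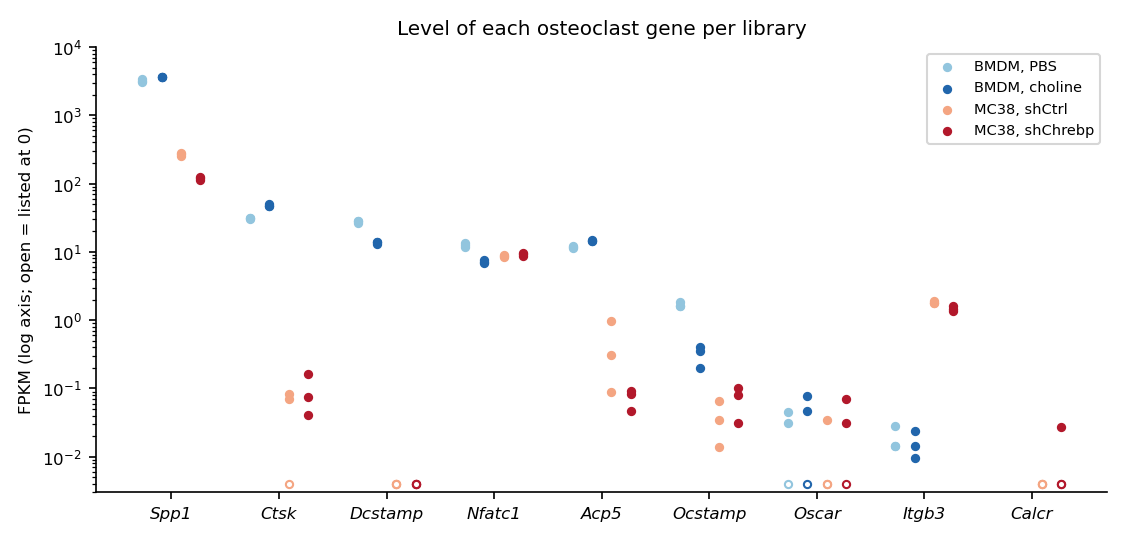
FPKM of each osteoclast gene in every library on a log axis, with BMDM in blue (light for PBS, dark for choline), MC38 tumors in red (light for shCtrl, dark for shChrebp) and open points for libraries listed at 0. Spp1 was the most abundant in both kinds of sample, Ctsk, Dcstamp, Acp5 and Ocstamp lay higher in BMDM, and Itgb3 lay higher in tumors.

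The tables of macrophages and tumors were normalized separately and use different gene models, so levels across them are set side by side without a test. For Nfatc1 the length behind the FPKM was 7601 bases in the BMDM table and 4547 in the tumor table, and for Spp1 it was 1658 and 1413. In FPKM, Spp1 was at 3089 to 3356 in PBS macrophages and at 251 to 277 in shCtrl tumors. Itgb3 had the other order, at 0.0143 to 0.0284 FPKM in PBS macrophages and 1.77 to 1.91 FPKM in shCtrl tumors. Nfatc1 was at 11.9 to 13.3 and 8.28 to 9.11 FPKM. Spp1 and Nfatc1 were thus detected in every library of both kinds. The log2 fold change of Spp1 was 0.18 with choline and -1.15 with the Chrebp hairpin, and that of Nfatc1 was -0.81 and 0.07.

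Around these 9 genes, 124 genes of osteoclast formation and function were sorted by role into 10 lists from textbook knowledge. These lists were drawn up with earlier results of these data known, so the shares called are a description and nothing is read from them. In BMDM 107 of the 124 genes were tested, and 48 were called higher and 33 lower with choline, 75.7% in all against 57.4% of all genes tested. The 48 include Csf1, which passed the filter through its choline libraries alone. In tumors 89 were tested, and 25 were called higher and 31 lower in shChrebp, 62.9% against 38.2%. Median log2 fold changes of these genes were 0.10 in BMDM and -0.04 in tumors, where the medians of all genes tested were 0.00 in both. The adjusted p-values below come from limma on log2(FPKM + 0.1) for BMDM and from edgeR's quasi-likelihood test for tumors.

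**Figure D4:**
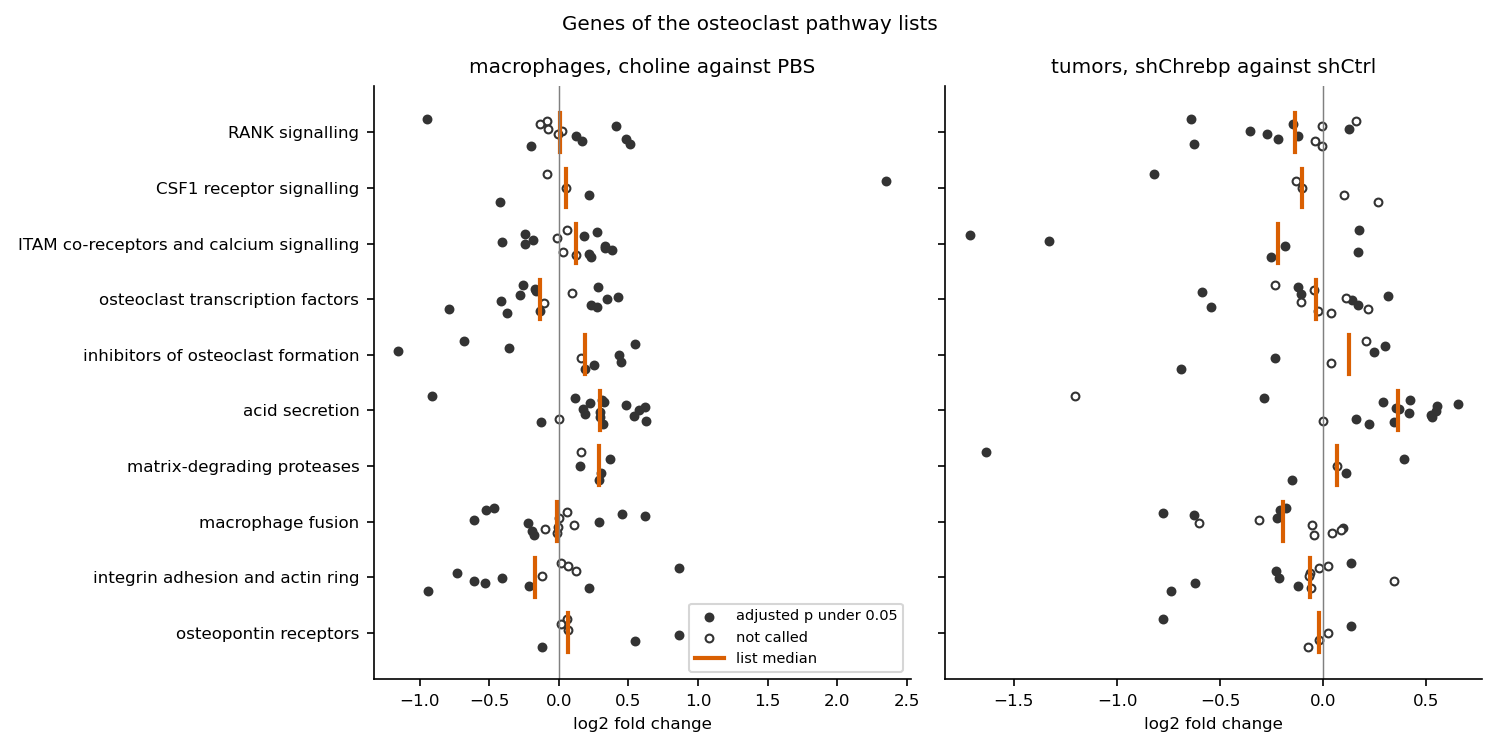
Log2 fold changes of the tested genes of 10 osteoclast lists, choline against PBS in BMDM on the left and shChrebp against shCtrl in tumors on the right. Each point is a gene, filled where the adjusted p was under 0.05, and the orange bar is the median of the list. Acid secretion genes lay to the right in both panels. Csf1, which passed the BMDM filter through its choline libraries alone, lay far right there and left in tumors.

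Of 12 tested genes of RANK signalling, 5 rose and 2 fell with choline, and the median was 0.01. The share called, 58.3%, was near the 57.4% of all genes tested, so nothing is read from the count. Tnfrsf11a was at 14.6, 14.6 and 14.3 FPKM with PBS and 6.80, 7.51 and 8.10 FPKM with choline, a log2 fold change of -0.95 ± 0.07 (SE, limma adjusted p = 2.37e-06). Relb and Nfkb2, subunits of the alternative NF-kappaB pathway, rose by 0.51 and 0.48, and Tab2, an adaptor of the TAK1 kinase, by 0.41. Traf6, the adaptor that links RANK to these kinases, was at -0.09 ± 0.07 (limma adjusted p = 0.24). Without choline 1 the count that rose was 3. In tumors 7 of 12 fell and 1 rose, 66.7% in all against 38.2% of all genes tested, with a median of -0.13. Over 11 alternatives the count that fell was 5 to 7 and the count that rose 0 to 2. No gene rose with the DESeq2 Wald test, with limma on log2(FPKM + 0.1), or without shCtrl 2, shChrebp 1 or shChrebp 2. Tnfsf11, which encodes RANKL, had 0 counts in all 6 tumor libraries and is not analysed here in BMDM. Tnfrsf11a had 105 to 127 counts in shCtrl and 69 to 91 in shChrebp, and fell by 0.64 ± 0.15 on the log2 scale (edgeR adjusted p = 0.00135). Relb, Map3k14, Ikbkb and Nfkb2 fell as well, at -0.63, -0.35, -0.27 and -0.22. Of the 4 RANK genes called in both comparisons, Tnfrsf11a was lower in both, and Nfkb1, Nfkb2 and Relb were higher with choline and lower in shChrebp.

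Csf1, the growth factor for macrophages and osteoclast precursors, was at 0.339, 0.400 and 0.254 FPKM with PBS and at 2.10, 2.01 and 2.12 FPKM with choline. It rose by 2.35 ± 0.15 on the log2 scale, and by 1.21 with a pseudocount of 1. Because Csf1 passed the filter through the choline libraries alone, its groups had to lie apart, and no p-value is given for it in BMDM. In tumors Csf1 was abundant, at 129 to 134 FPKM in shCtrl and 69.9 to 78.9 FPKM in shChrebp, and fell by 0.82 ± 0.03 on the log2 scale (edgeR adjusted p = 2.27e-18). Its receptor gene Csf1r was at 203 ± 6.99 and 191 ± 7.68 FPKM in BMDM (SD, n = 3), a log2 fold change of -0.08 ± 0.04 (limma adjusted p = 0.112). That gene was called lower in 2 of 12 alternatives, with FPKM rescaled by TMM factors and with edgeR on recovered reads.

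Among ITAM co-receptors and calcium signalling, 7 of 15 tested genes rose with choline and 4 fell, 73.3% in all against 57.4% of all genes tested. Fcer1g, the adaptor that Oscar uses, rose by 0.27 ± 0.03, Lcp2 and Vav1, which relay Syk signals, by 0.33 and 0.38, and the kinase gene Tec fell by 0.41. Trem2, a lipid-binding receptor that promotes osteoclast formation, fell by 0.24 ± 0.06 (limma adjusted p = 0.0057), and its adaptor gene Tyrobp was at 0.06 ± 0.04 (limma adjusted p = 0.244). In tumors 6 of 17 were tested, and 2 were called higher and 4 lower, 100% against 38.2% of all genes tested. The 4 became 2 with the DESeq2 Wald test and 1 with limma on FPKM. Plcg2, the phospholipase that raises calcium, stood at 28, 39 and 43 counts in shCtrl against 20, 10 and 7, at -1.71 ± 0.34 (edgeR adjusted p = 0.00017).

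Transcription factors of osteoclasts fell in 8 of 15 tested genes with choline and rose in 5, with a median of -0.14. The share called was 86.7%, against 57.4% of all genes tested. Nfatc2, a relative of Nfatc1, fell by 0.79 ± 0.09 (limma adjusted p = 4.98e-05), from 2.28 to 1.27 FPKM, as Nfatc1 did. Spi1, which encodes PU.1, fell by 0.26 ± 0.04, Jund by 0.42, while Jun, Junb and Mitf rose by 0.43, 0.35 and 0.28. Factors that hold osteoclast formation back rose in 5 of 9 and fell in 3, 88.9% in all against the same 57.4%. The repressor gene Bcl6 went from 15.0 to 21.9 FPKM, at 0.54 ± 0.05 (limma adjusted p = 1.09e-05), and Rbpj and Tnfaip3 rose by 0.43 and 0.45. Irf8, which represses Nfatc1, went from 7.04 to 4.36 FPKM, at -0.69 ± 0.09 (limma adjusted p = 0.000146). In tumors the transcription factors were called higher in 3 and lower in 4 of 14, 50% in all against 38.2% of all genes tested. Myc was at -0.54, Fosl1 at -0.59 and Jun at 0.32. The 4 became 2 without shCtrl 2, shCtrl 3 or shChrebp 3, with the DESeq2 Wald test, with limma on FPKM and without a filter. All 4 inhibitors called in both comparisons went opposite ways, with Tnfaip3 and Rbpj higher with choline and lower in shChrebp, and Id1 and Id2 the reverse.

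Acid secretion dissolves bone mineral and uses the vacuolar proton pump that also acidifies lysosomes. With choline 14 of its 17 tested genes rose and 2 fell, 94.1% in all against 57.4% of all genes tested, with a median of 0.30. In shChrebp 13 of 16 rose and 1 fell, 87.5% in all against 38.2% of all genes tested, with a median of 0.36. Over the alternatives these counts stayed at 12 to 14 and at 12 or 13 genes higher, and 1 gene instead of 2 fell with choline without PBS a or without any 1 choline library. Of the 13 called in both, 11 were higher in both, and these were 8 pump subunit and accessory genes, Clcn7, Ostm1 and Rab7. Atp6v1c1, a pump subunit, went from 103 to 112 FPKM with PBS to 150 to 154 FPKM with choline, at 0.49 ± 0.04 (limma adjusted p = 6.90e-06). In tumors it went from 42.0 to 42.9 FPKM in shCtrl to 63.8 to 69.4 FPKM in shChrebp, at 0.65 ± 0.04 (edgeR adjusted p = 6.15e-14). Atp6v1d and Atp6v1g1 rose by 0.62 and 0.58 with choline. Car2, which supplies the protons, fell with choline from 296, 302 and 307 FPKM to 162, 158 and 160 FPKM, at -0.91 ± 0.03 (limma adjusted p = 8.85e-08). Tcirg1, the pump's osteoclast subunit a3, was at 0.11 ± 0.04 with choline, a call that held in 8 of 12 alternatives, and fell by 0.28 ± 0.05 in shChrebp. The call for Atp6v0d2, the d2 subunit that also takes part in fusion, held in 5 of 12, at 0.31 ± 0.11 with choline. In tumors Car2 was at -1.20 ± 0.80 (edgeR adjusted p = 0.319), and at -0.08 without shCtrl 1 (edgeR adjusted p = 0.870).

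Matrix-degrading proteases beside Ctsk rose in 4 of 5 tested genes with choline and fell in none, 80% against 57.4% of all genes tested. Ctsb, Ctsl, Ctss and Ctsd, the lysosomal cathepsins, rose by 0.37, 0.30, 0.29 and 0.15, less than the 0.64 of Ctsk. Mmp9, the gelatinase of osteoclasts, was at 0.16 ± 0.06 (limma adjusted p = 0.0555) and was called in 3 of 12 alternatives. In tumors Mmp9 stood at 28, 28 and 27 counts in shCtrl against 12, 12 and 6 in shChrebp, at -1.64 ± 0.34 (edgeR adjusted p = 0.000306), while the membrane-bound collagenase gene Mmp14 rose by 0.39 ± 0.04.

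Of 15 tested genes of macrophage fusion other than Ocstamp and Dcstamp, 6 fell and 3 rose with choline, with a median of -0.02. Adam8, a metalloprotease gene, went from 85.6 to 56.0 FPKM, at -0.61 ± 0.05 (limma adjusted p = 9.62e-06), and the tetraspanin gene Cd9 from 265.7 to 192 FPKM, at -0.46 ± 0.05. Sirpa and its ligand Cd47, which fusing macrophages use for recognition, rose by 0.62 ± 0.04 and 0.45 ± 0.04. The share of this list called with choline, 60%, was near the 57.4% of all genes tested, so nothing is read from the count. The named genes did not all move with Ocstamp and Dcstamp. In shChrebp tumors 5 of 12 fell and 1 rose, 50% in all against 38.2% of all genes tested. Among those that fell were Cd44 at -0.78 ± 0.03 and Cd47 at -0.63 ± 0.04 (edgeR adjusted p = 3.86e-20 and 4.70e-14). The count that rose there was 0 with the DESeq2 Wald test, with limma on log2(FPKM + 0.1), and without shCtrl 1, shCtrl 2, shChrebp 2 or shChrebp 3.

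Integrin adhesion and actin ring genes, which build the sealing zone, fell in 6 of 12 tested genes with choline and rose in 2. The share called was 66.7%, against 57.4% of all genes tested. Gsn, the actin-severing gelsolin, went from 27.2 to 14.2 FPKM, at -0.94 ± 0.08 (limma adjusted p = 7.60e-06). Ptk2b, the adhesion kinase Pyk2, fell by 0.73 ± 0.06, and Fermt3, the integrin activator kindlin-3, by 0.61 ± 0.04. Itgb5, an alternative partner of αv, rose from 7.75 to 14.1 FPKM, at 0.86 ± 0.08 (limma adjusted p = 1.30e-05), while Itgav itself was at 0.01 ± 0.05 (limma adjusted p = 0.859). In tumors 5 of 12 fell and 1 rose, 50% in all against 38.2% of all genes tested. Gsn was at -0.74 ± 0.03 and Vcl, the adhesion protein vinculin, at -0.62 ± 0.04. Gsn, Tln1 and Vcl were lower in both comparisons.

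The receptors that bind osteopontin were 8 genes, and 6 of them were tested in BMDM and 5 in tumors. The shares called were 50% in BMDM and 40% in tumors, against 57.4% and 38.2% of all genes tested, so nothing is read from them. With choline Itgb5 and Itga4 rose, the latter by 0.54 ± 0.06, and Cd44 was at 99.1 ± 3.26 and 103 ± 1.45 FPKM (SD, n = 3), a log2 fold change of 0.06 ± 0.04 (limma adjusted p = 0.224). In tumors Cd44 fell beside Spp1, from 563 to 579 FPKM in shCtrl to 334 to 341 FPKM in shChrebp. Itgav was at 0.14 ± 0.03 there, a call that held in 10 of 11 alternatives and ended with limma on log2(FPKM + 0.1).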

How the data were processed

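RNA-seq libraries were made from total RNA with the VAHTS Universal V6 kit, per the labels' protocols, and GRCm39 is the build per the submitters' processing notes. The sources used here name no aligner or counter and do not say if strand was used. The authors deposited, for tumors, FPKM and estimated counts for each Ensembl ID, per the file headers. Estimated counts, 92.0% of them whole, were rounded for testing, and CPM were computed from them. For BMDM the authors deposited FPKM per gene symbol. Tumor rows were named by Ensembl ID, which gave 22219 of 22274 a symbol. For BMDM, 2 PBS columns share a heading and were used as PBS libraries a and b (values are given in the order 1, a, b), and 2 of 19498 rows without a name or value were left out.

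The deposited BMDM FPKM were whole multiples of 1 read in 19496 of 19496 rows (100.0%), within 0.02 reads, which gave the reads quoted. Of 200 shuffled rows 0 passed, but these also had to stay under a limit on reads that real rows did not face. The rates are therefore not alike. In 402 rows the reads were then multiplied by a whole number so that the gene length came out whole or met a reference length. A further 0.127 to 0.144% of the reads behind the FPKM scale lay outside the listed rows.

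Tumor genes were tested with edgeR 4.0.16 (quasi-likelihood F test, TMM, robust dispersion, filterByExpr, in R 4.3.3), and the SE is the fold change divided by the root of F. BMDM genes that reached 1 FPKM in at least 3 libraries were tested with limma 3.58.1 (trend, robust) on log2(FPKM + 0.1), which understates the change of low genes. Adjustment was by Benjamini-Hochberg over all genes tested, with a threshold of 0.05. Both fits were tested on simulated data. Counting floors are 3 counts per library and cover counting error only.

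The 9 genes, the 10 pathway lists and the marker lists were chosen with earlier results of these data known. Named are the 9 genes, the 4 called genes, or fewer, with the lowest adjusted p in a list, a fixed set of 17 regulators and effectors, and the 5 genes most like Ocstamp and Dcstamp, as far as room allowed. The macrophage and fibroblast markers quoted singly, Tnfsf11 and the genes of shCtrl 1 were singled out after their values were seen. Alternatives were DESeq2 1.42.0, other scalings, pseudocounts and filters, a replicate block and leaving out each library.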

Additional observations from a re-analysis of the deposited data

How the results depend on the processing

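Of the counts of called genes, that of osteoclast genes in tumors depended on the processing. Spp1 and Itgb3 were called, and 1 gene, Spp1, was left with the DESeq2 Wald test (1 gene) and with limma-trend on log2(FPKM + 0.1) (1 gene). Leaving out each library in turn gave 1 to 2 genes. Without a filter on low counts 3 of 8 tested were called, all lower, Acp5 being the third. Of all tumor genes 4505 were called, with 3183 to 4819 over the alternatives, and of the pathway genes 56, with 45 to 57. In BMDM 5754 genes were called, with 4867 to 6444, and of the pathway genes 81, with 72 to 87. The 6 osteoclast genes of BMDM became 5 on leaving out any PBS library, since Ocstamp then failed the filter. Of the pathway genes picked by adjusted p or fixed by name, none reversed a call under an alternative, and genes named for likeness or as markers were not followed here. With the replicate number as a block in the tumor fit, 4640 genes, 2 osteoclast genes and 57 pathway genes were called. Same-numbered libraries did not deviate together over all genes (correlations of 0.0579, -0.0641 and -0.0254). These correlations cannot tell whether such libraries shared a day, batch or set of animals, and the labels do not say. No paired analysis was possible for BMDM because 2 PBS columns carry the same heading. Depth limited Itgb3 and Oscar in BMDM. In tumors it limited Dcstamp, Calcr, Oscar, Ctsk and Ocstamp, at 0 to 7 counts per library, and Acp5, at 1 to 21.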
